A study of Mus musculus with 18 samples.

Results

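The genes described here are 40 genes of autophagy and of the lysosome, chosen by name from the count table of the knockdown series, in which each of the 40 symbols was listed once among 54347 genes. All 40 passed the filter on low counts, which left 14949 genes, so that every one of them was tested. The lowest count of any of the 40 in any library was 67, for Atg10. The samples were wt1-SAM cells, an immortalised line of mouse brown preadipocytes that carries SAM, a CRISPR activation machinery. Every group had been differentiated with rosiglitazone, T3, dexamethasone, insulin, indomethacine and IBMX and was then kept in 0.5 µM rosiglitazone. On day 4 the cells received a locked nucleic acid gapmer (LNA), a short modified antisense oligonucleotide that directs the cleavage of the RNA it pairs with. The LNA was ctrlA, which is non-targeting, or LNA1 or LNA2, which are both directed against the long non-coding RNA Gm15551. Cells of each LNA were left unstimulated or received 1 µM isoproterenol, a β-adrenergic agonist, for 24 h before harvest on day 7. The resulting 6 groups held 3 libraries each, numbered 2, 3 and 4. The labels do not say whether these came from separate cultures, so the p-values measure the spread between libraries, which may be technical.

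Autophagy encloses parts of the cytoplasm in a double membrane and delivers them to the lysosome, where acid hydrolases degrade them. A kinase complex around ULK1 starts the process, a lipid kinase complex and lipid transfer proteins form and enlarge the membrane, and conjugating enzymes attach LC3 and GABARAP proteins to it, to which cargo receptors bind. In adipocytes lysosomal lipase takes part in the breakdown of stored lipid, and in brown and beige fat the clearance of mitochondria by autophagy is known for its part in the loss of the thermogenic state.

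The groups are set by the LNAs, so their sequences are given first, 5′ to 3′ in lower case, as the study lists them.

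ctrlA: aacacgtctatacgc

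LNA1: gatgactgagattaga

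LNA2: aagtagcacggcgttg

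The complement of LNA1 was found at bases 347 to 362, and that of LNA2 at bases 241 to 256, of the 535-base Gm15551 transcript of GENCODE M21. No complement of ctrlA was found there. In the annotated transcripts of the 40 genes, the longest run complementary to an LNA was 8 bases for ctrlA, 9 bases for LNA1 and 8 bases for LNA2. Gm15551 itself was scarce, with 7 to 14 counts per library in unstimulated ctrlA, 3 to 12 with LNA1 and 1 to 13 with LNA2. These counts are not scaled to depth. In unstimulated replicate 2, ctrlA held 14 of 19723021 counts, LNA1 12 of 14114672 and LNA2 13 of 13451064. In replicate 3 the counts were 8 of 13649222, 3 of 10562958 and 3 of 13331664. In replicate 4 they were 7 of 11927769, 3 of 9167560 and 1 of 13005686. Thus both LNAs lay below ctrlA in replicates 3 and 4, at very low counts. After isoproterenol Gm15551 had 2 to 9, 1 to 4 and 1 to 5 counts, and it did not pass the filter.

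Library totals ranged from 9167560 to 19723021 counts, of which the 40 genes took 0.555% to 0.686%. In all libraries the adipocyte markers (Pparg, Adipoq, Fabp4, Plin1, Cidec, Lpl and Cd36) summed to 14234 CPM or more. CPM here are counts scaled to a common library size, with TMM factors that set libraries of different composition on one scale. Of the brown adipocyte markers, Elovl3 averaged 289 CPM and Ppargc1a 64.8 CPM, whereas Ucp1 averaged 6.98 CPM, Cidea 12.5 CPM and Dio2 0.0846 CPM. Of the 9 macrophage markers, which matter here because macrophages are rich in lysosomes, 7 averaged under 1 CPM, while Cd68 averaged 19.5 CPM and Cd14 3.20 CPM. Adgre1 and Ptprc of this list averaged 0.0204 and 0.0538 CPM. The macrophage sum ranged from 10.8 to 31.2 CPM in unstimulated and from 15.2 to 49.4 CPM in stimulated libraries, and its part in the results was not tested. This sum rests mainly on Cd68 and does not by itself show that macrophages were present. Preadipocyte markers summed to 16.5 to 41.5 CPM in unstimulated and 26.4 to 75.6 CPM in stimulated libraries, with Dpp4 at 0 in all of them. Ly6a had the widest range among them, from 5.67 to 63.2 CPM, so the sum largely follows that gene. In bulk RNA of this kind, fewer cells of a type and less RNA per cell cannot be told apart.

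Per kilobase of exon, Bnip3 was the most abundant of the 40 genes, at 362 ± 119 CPM per kb (SD, n = 18 libraries). The length used joins all annotated exons of a gene, over all its transcripts, so the order of the genes depends in part on the annotation. BNIP3 is a receptor on the outer mitochondrial membrane that hands mitochondria to the autophagosome. It was followed by Lamp1, the major membrane glycoprotein of the lysosome, at 211 ± 22.1 CPM per kb, by Ctsd, an aspartic protease of the lysosome, at 176 ± 26.2 CPM per kb and by Sqstm1, which encodes the cargo receptor p62, at 127 ± 32.4 CPM per kb. Atg101 of the initiation complex stood at 125 ± 12.5 CPM per kb, a difference from Sqstm1 that was smaller than the SD of either gene. At the other end were Atg14, the subunit that directs the lipid kinase complex to autophagy, at 3.73 ± 0.662 CPM per kb, Atg2b at 4.18 ± 1.20 CPM per kb and Rb1cc1 at 4.68 ± 0.901 CPM per kb. Tfe3 and Tfeb, which encode transcription factors of lysosomal genes, averaged 4.82 ± 1.22 and 5.19 ± 1.63 CPM per kb. Neighbours among these 5 lowest genes differed by less than their SDs.

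**Figure D1:**
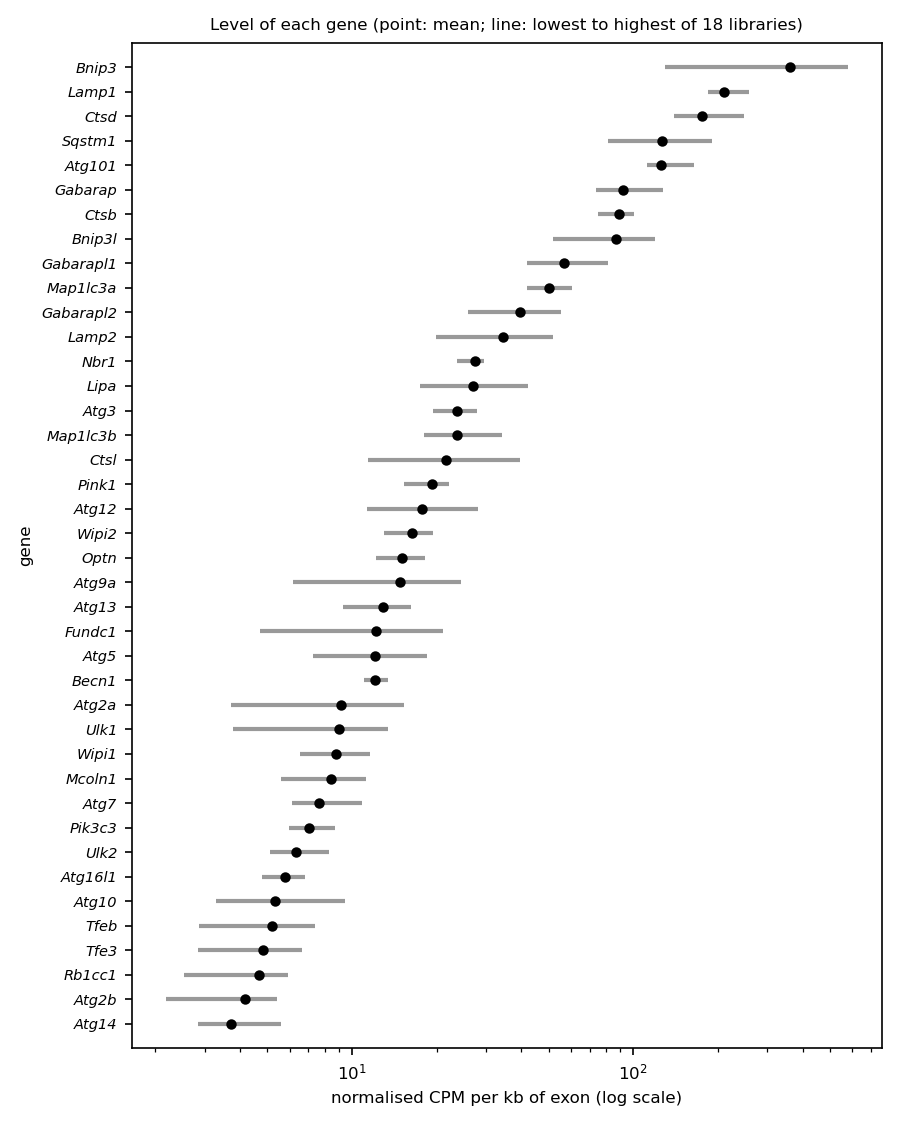
Level of each of the 40 genes in normalised CPM per kb of exon, on a log axis. Points are means over 18 libraries and lines run from the lowest to the highest library; means go from 3.73 for Atg14 to 362 for Bnip3, and the longest lines belong to genes such as Atg2a, Atg9a, Ulk1, Fundc1 and Bnip3.

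The libraries numbered 2 stood apart from those numbered 3 and 4 in most of these genes, as they did in the series as a whole. The comparison was chosen after seeing the data and was made in a model that holds a term for each group. In it, 18 of the 40 genes were higher and 17 lower in the libraries numbered 2 at an adjusted p below 0.05, while 35.8% of all genes tested were higher and 35.1% lower. For 12 of the genes that were higher and 11 that were lower the 6 libraries numbered 2 did not overlap the other 12, as was the case for 34.5% of all genes tested.

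The genes that were lower in the libraries numbered 2 included the kinase gene Ulk1, at 24.5 to 34.6 CPM in those libraries against 59.8 to 87.4 CPM in the others (log2 fold change −1.33 ± 0.06, SE). The membrane growth genes Atg2a, which encodes a lipid transfer protein, and Atg9a, which encodes the transmembrane scramblase of autophagy, were lower as well. They stood at 28.6 to 38.0 against 71.5 to 118 CPM and at 35.5 to 50.5 against 92.5 to 140.3 CPM. Their log2 fold changes were −1.45 ± 0.07 and −1.34 ± 0.07, and those of Tfeb and Atg2b were −1.02 ± 0.06 and −0.96 ± 0.06. Genes in the opposite direction included the mitophagy receptor Fundc1, at 35.7 to 49.6 against 11.1 to 25.3 CPM (1.06 ± 0.09). They also included 3 genes of the ATG12 conjugation system, namely Atg10 (0.97 ± 0.07), Atg5 (0.92 ± 0.07) and Atg12 (0.89 ± 0.06), as well as the lysosomal membrane gene Lamp2 (0.89 ± 0.06) and the cysteine protease gene Ctsl (0.91 ± 0.05). Thus both directions held genes of several roles. The 5 genes that did not pass included Gabarapl1 (0.10, adjusted p = 0.119), Lipa (0.07, adjusted p = 0.291) and Atg14 (−0.02, adjusted p = 0.829).

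The 10 genes with the shortest exons, of 1.18 to 2.35 kb, had a median log2 fold change of 0.62 in this comparison, whereas the 10 with the longest, of 7.52 to 14.7 kb, had −0.28. Over the 40 genes the difference correlated with log2 exon length at Pearson's r = −0.31 (Spearman's rho = −0.28), and over all genes tested at −0.27 (−0.25). These values describe genes that share the same libraries and carry no p. Signs of RNA quality differed along with the replicate number. A ribosomal RNA gene took 2.88% to 14.3% of the counts in the libraries numbered 2 and 0.285% to 1.04% in the others, and mitochondrial genes took 0.575% to 0.984% and 0.0892% to 0.373%. Their part in the differences was not tested. Library 3 of stimulated LNA2 also stood apart for some of the genes, with the lowest value of all 18 libraries for Bnip3 (295 CPM), Fundc1 (11.1 CPM) and Rb1cc1 (37.0 CPM) and the highest for Atg2a (118 CPM) and Atg9a (140.3 CPM). Among others, Sqstm1 (639 CPM), Ctsd (582 CPM) and Ctsb (610 CPM) also had their highest value in that library.

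**Figure D2:**
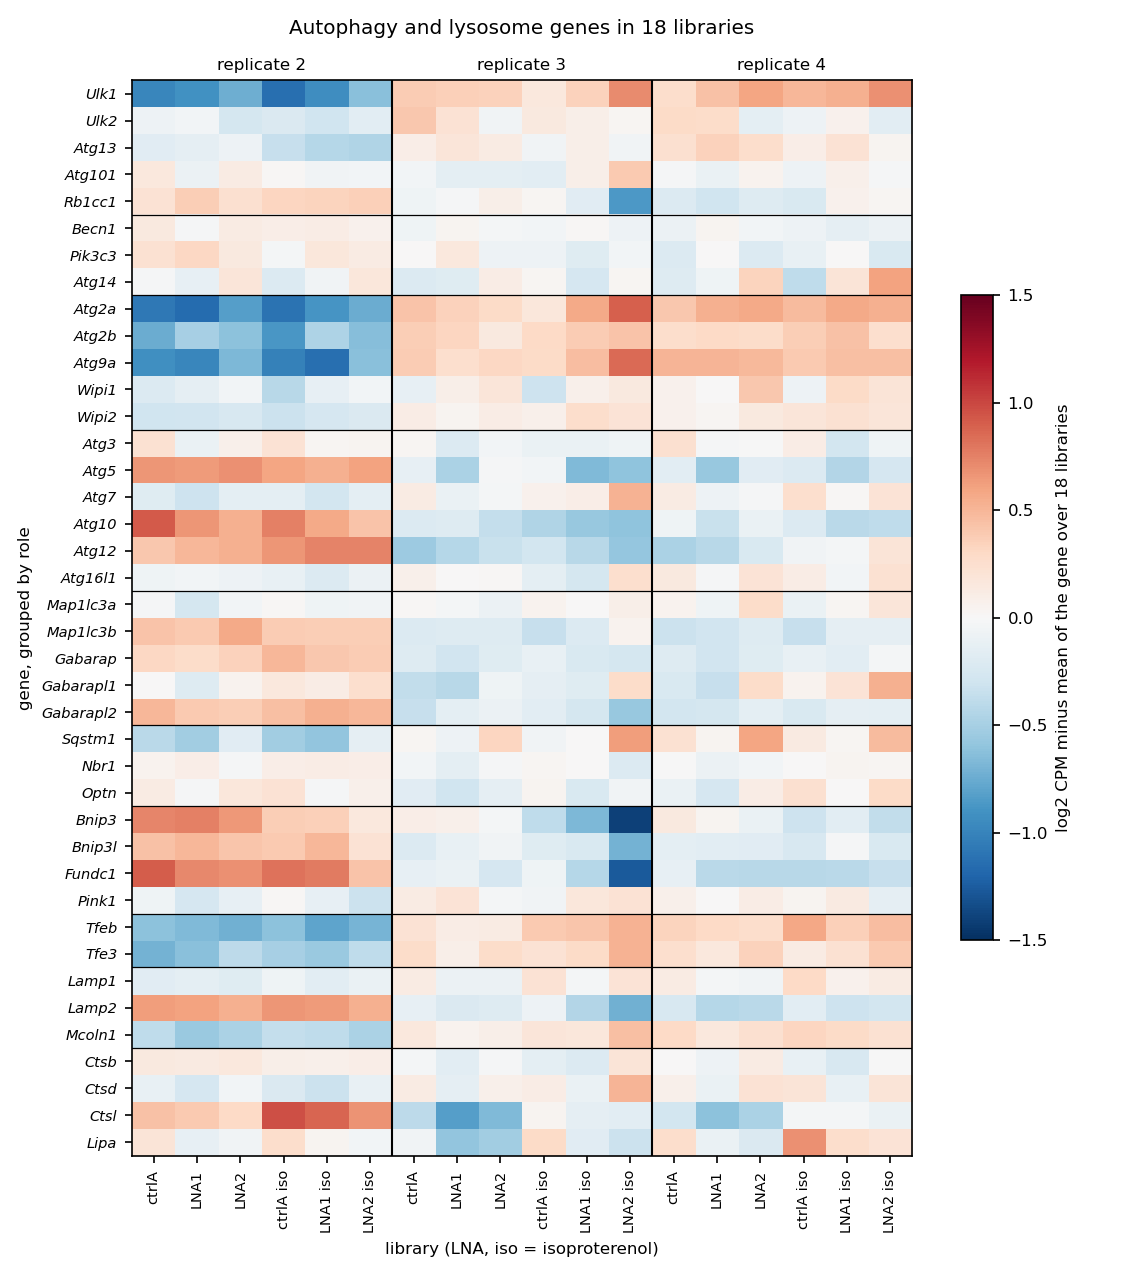
Each row is 1 of the 40 genes, grouped by role, and each column 1 of the 18 libraries, ordered by replicate number; colour gives log2 CPM minus the mean of that gene over the 18 libraries. The 6 columns of replicate 2 share a pattern that differs from the 12 others, with Ulk1, Atg2a and Atg9a low and Fundc1, Atg5 and Lamp2 high.

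**Figure D3:**
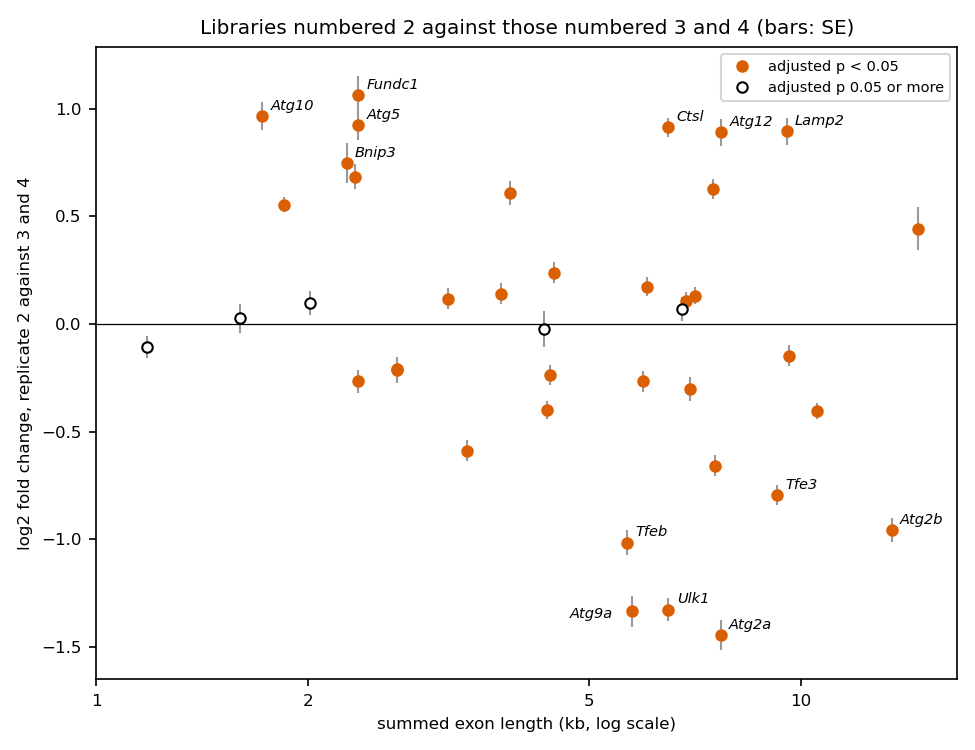
Log2 fold change of each of the 40 genes in the libraries numbered 2 against those numbered 3 and 4 (vertical axis, with SE) against summed exon length in kb (log axis). Filled points are the 35 genes past an adjusted p of 0.05; the shorter genes lie mostly above 0 and Atg2a, Ulk1, Atg9a, Tfeb and Atg2b lie lowest.

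Each comparison between groups was therefore made in 2 fits, with a term for each group alone and with the replicate number as a further term (the replicate block). Without the block, edgeR called 0 of the 40 genes at an adjusted p below 0.05 in any of the 7 tests. At an unadjusted p below 0.05 it found 2 genes in the joint test of the 6 groups (11.3% of all genes tested), 3 under isoproterenol (15%), 2 in the comparison of LNA1 with ctrlA (6.01%), 4 in that of LNA2 with ctrlA (10.6%), 5 between LNA2 and LNA1 (9.20%) and 0 in the interactions of LNA1 (0.702%) and LNA2 (0.776%). DESeq2 without the block called 1 gene, Gabarapl1, in the joint test (adjusted p = 0.00636) and for isoproterenol (adjusted p = 0.0201) and 0 genes in the other tests. The share of all genes tested that DESeq2 called is not given here, so these counts have no background to be read against. The share of all genes tested that edgeR called without the block was 2.94% in the joint test, 4.58% for isoproterenol, 0.475% for LNA1, 1.59% for LNA2 and 0.970% for LNA2 against LNA1. With the block, 13 of the 40 genes were called in the joint test, against 32% of all genes tested. They were Ulk1, Ulk2, Atg13, Wipi1, Gabarapl1, Sqstm1, Optn, Bnip3, Tfe3, Lamp1, Ctsd, Ctsl and Lipa. In what follows, a gene is said to have risen or fallen where it passed in the fit with the block, and the adjusted p without the block is given beside the genes whose libraries are listed.

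Isoproterenol was compared with no stimulation over the 3 LNAs, 9 libraries against 9. The hydrolase genes Ctsl and Lipa and the LC3-family gene Gabarapl1 rose, and the mitophagy receptor gene Bnip3 fell, while the hydrolase genes Ctsb and Ctsd were not called. With the block 10 of the 40 genes were called, 6 higher and 4 lower, against 26.4% of all genes tested (14.2% higher and 12.2% lower). The median log2 fold change was 0.03 over the 40 genes and −0.00 over all genes tested. In every one of the 9 same-numbered pairs, Gabarapl1, Ctsl and Lipa were higher and Atg13, Atg10 and Bnip3 lower after isoproterenol, and 15.3% of all genes tested moved 1 way in every pair (8.40% higher and 6.91% lower). None of the 40 genes was free of overlap with all 3 LNAs, against 2.60% of all genes tested. Some genes of the marker lists moved along with the stimulation in the fit without the block. Of the macrophage list, Cd68 went from 13.7 ± 5.34 to 25.3 ± 8.53 CPM (adjusted p = 0.00618) and Cd14 from 1.89 ± 0.817 to 4.51 ± 1.60 CPM (adjusted p = 0.00398). The adipocyte marker Adipoq went from 616 ± 102 to 379 ± 84.3 CPM (adjusted p = 0.0073). With the block 2 of 3 tested macrophage markers and 1 of 4 preadipocyte markers were higher and 5 of 7 adipocyte markers lower. Of 6 brown adipocyte markers 4 were higher and 1 lower. Without the block, too, 1 of 4 preadipocyte markers was called higher. It was the only 1 of the 4 with a log2 fold change above 0, and their median was −0.10. The mitochondrial share of the counts was lower after isoproterenol in 8 of 9 same-numbered pairs. It went from 0.704% to 0.575% in replicate 2 and from 0.263% to 0.252% in replicate 3 of ctrlA. In replicate 3 of LNA2, whose stimulated library stood apart, it went from 0.373% to 0.0892%. In replicate 4 of LNA1 it rose from 0.211% to 0.222%. The share of the ribosomal RNA gene was lower in 7 of 9 pairs, for example 14.3% and 7.44% in replicate 2 of LNA1 and 8.31% and 2.88% in replicate 2 of LNA2. The part of these markers and shares in the results was not tested.

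Of the initiation complex, Atg13, a scaffold of the ULK1 kinase, fell from 59.9 ± 7.52 to 52.7 ± 8.73 CPM (SD, n = 9; log2 fold change −0.19, adjusted p = 0.00158), and the kinase gene Ulk2 fell from 39.8 ± 6.37 to 36.1 ± 3.83 CPM (−0.13, adjusted p = 0.0418). Ulk2 lost its call in 11 of 18 fits that left out 1 library, most of all without unstimulated LNA2 replicate 2 (adjusted p = 0.10). Ulk1, Atg101 and Rb1cc1 were not called. No gene of the class III PI3K complex and none of membrane growth was called, with log2 fold changes from −0.08 for Pik3c3 to 0.05 for Atg14 in the former and from −0.06 for Wipi1 to 0.11 for Atg2a in the latter. Of the conjugation machinery, Atg12, whose product is itself a ubiquitin-like tag, rose (0.22, adjusted p = 0.0123), and Atg10, the enzyme that transfers it, fell (−0.19, adjusted p = 0.0387). Atg12 was not called without the block (adjusted p = 0.802), and with it its call was lost without all libraries numbered 2 or all those numbered 4 (adjusted p = 0.196 in either case). The call of Atg10 was lost in 13 of 18 fits without 1 library, at most at an adjusted p of 0.106 without unstimulated ctrlA replicate 2.

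Among the LC3 and GABARAP genes, Gabarapl1 (chr6:129533160-129542346, plus strand; GRCm38, GENCODE M21, as for the positions that follow) rose. In replicates 2, 3 and 4 it stood at 113, 86.9 and 96.0 CPM in unstimulated ctrlA, at 98.2, 84.4 and 88.5 CPM with LNA1 and at 116, 108 and 136 CPM with LNA2. After isoproterenol it stood at 126, 103 and 116 CPM with ctrlA, at 122, 99.5 and 129.7 CPM with LNA1 and at 134, 136 and 163 CPM with LNA2. Each stimulated library lay above the unstimulated library of its LNA and number, and with LNA1 the groups did not overlap. The fold change was 1.22, and the log2 fold change was 0.29 ± 0.09 (SE, adjusted p = 0.0820) without the block and 0.29 ± 0.05 (adjusted p = 0.000619) with it. The exons of Gabarapl1 share 570 bases with 1700101I11Rik on the opposite strand, and whether strand was used in counting is not stated. Map1lc3a, Map1lc3b, Gabarap and Gabarapl2 were not called, with log2 fold changes from 0.00 to 0.09. None of the cargo receptor genes Sqstm1, Nbr1 and Optn was called.

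Bnip3 (chr7:138890836-138909519, minus strand) was lower after isoproterenol in all 9 pairs. Unstimulated libraries held 1285, 832 and 855 CPM with ctrlA, 1313, 820.0 and 799 CPM with LNA1 and 1221, 759 and 726 CPM with LNA2. Stimulated libraries held 1001, 596 and 624 CPM with ctrlA, 996, 488 and 696 CPM with LNA1 and 867, 295 and 602 CPM with LNA2. Within each number the stimulated libraries were lower, but the groups overlapped because all libraries numbered 2 were high. The fold change was 0.713, with a log2 fold change of −0.49 ± 0.22 (adjusted p = 0.300) without the block and −0.52 ± 0.09 (adjusted p = 0.000442) with it. Without the low library, stimulated LNA2 replicate 3, Bnip3 kept its call, as it did in all 18 fits without 1 library, where its log2 fold change ran from −0.57 to −0.43. The exons of Bnip3 share 504 bases with Gm45507 on the opposite strand. Of its 50-base stretches, 16.5% occur in other genes on the same strand and 44.9% on the opposite strand, so its counts are uncertain to that extent. Bnip3l, Fundc1 and Pink1, the other genes of mitophagy among the 40, were not called, with log2 fold changes from −0.17 to −0.01.

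Of the lysosome genes, Ctsl (chr13:64359337-64370890, minus strand), which encodes the cysteine protease cathepsin L, had the smallest p of the 40 with the block. It is listed by library because of that, and so was chosen after its values were seen. Unstimulated libraries held 179, 100.3 and 109 CPM with ctrlA, 173, 73.9 and 85.6 CPM with LNA1 and 162, 82.7 and 94.8 CPM with LNA2. Stimulated libraries held 257, 135 and 129 CPM with ctrlA, 240.2, 120.0 and 129 CPM with LNA1 and 209.6, 118 and 123 CPM with LNA2. Every stimulated library exceeded its partner, while the libraries numbered 2 lay far above the others in each group. The fold change was 1.38, with a log2 fold change of 0.46 ± 0.24 (adjusted p = 0.406) without the block and 0.47 ± 0.04 (adjusted p = 7.72e-07) with it. Without the libraries numbered 2, Ctsl passed also without the block (0.46, adjusted p = 0.00106). Its exons share 1742 bases with Gm47123 on the opposite strand, 6.46% of its 50-base stretches occur in other genes on the same strand, and its counts are uncertain to that extent.

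Lipa (chr19:34492318-34527474, minus strand) encodes the acid lipase that cleaves cholesteryl esters and triglycerides in the lysosome. Unstimulated libraries held 205, 172 and 215 CPM with ctrlA, 164, 119 and 167 CPM with LNA1 and 172, 125 and 154 CPM with LNA2. Stimulated libraries held 214, 219 and 287 CPM with ctrlA, 184, 159 and 214 CPM with LNA1 and 173, 143 and 206 CPM with LNA2. All 9 pairs were higher after isoproterenol, by little in replicate 2 of LNA2, and the groups overlapped. The log2 fold change was 0.27 ± 0.11 (adjusted p = 0.250) without the block and 0.27 ± 0.05 (adjusted p = 0.00125) with it, a fold change of 1.20, and the call with the block was lost without all libraries numbered 4 (adjusted p = 0.0645). Lamp1 rose as well, from 539.8 ± 43.6 to 588 ± 65.1 CPM (0.12, adjusted p = 0.0291), and so did Tfeb, from 27.6 ± 7.66 to 31.2 ± 10.7 CPM (0.16, adjusted p = 0.0320). Lamp1 lost its call in 7 of the 18 fits without 1 library, at most at 0.0680 without unstimulated LNA1 replicate 3, and Tfeb in 8, at most at 0.0879 without stimulated LNA1 replicate 3. Ctsb, Ctsd, Lamp2, Mcoln1 and Tfe3 were not called.

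**Figure D4:**
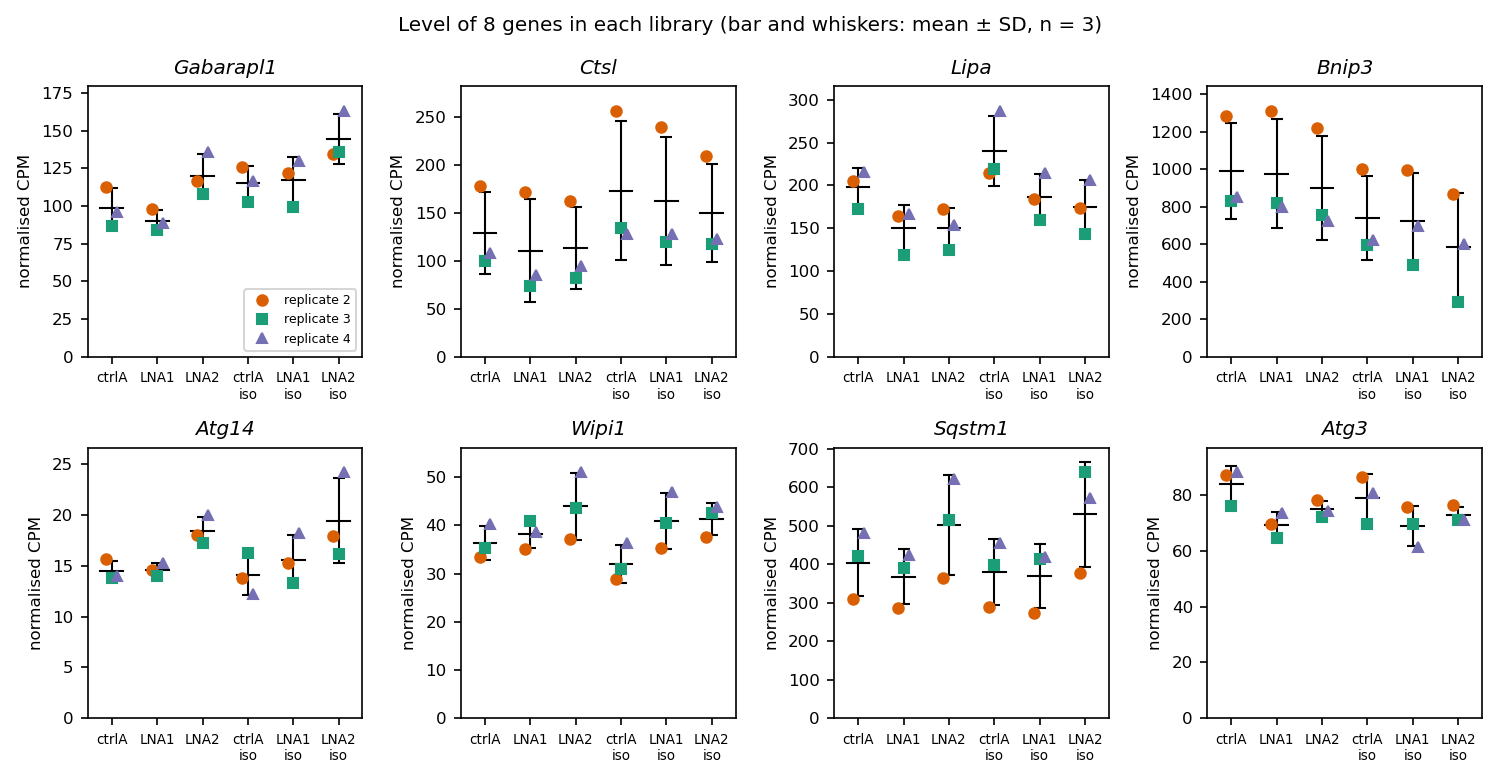
Normalised CPM of 8 genes in each of the 18 libraries, by LNA and stimulation; symbols mark the replicate number, and bars and whiskers give the mean ± SD of the 3 libraries of a group. Gabarapl1, Ctsl and Lipa lie higher and Bnip3 lower after isoproterenol within each number, Sqstm1 and Gabarapl1 lie higher with LNA2 than with LNA1, and Lipa lies lower with either LNA than with ctrlA.

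LNA1 was compared with ctrlA over unstimulated and stimulated cells, 6 libraries against 6. With the block 4 of the 40 genes were called, against 7.80% of all genes tested (3.77% higher and 4.03% lower). Wipi1 rose and Lipa, Atg3 and Optn fell. The median log2 fold change was −0.03 over the 40 genes and −0.02 over all genes tested. Over the 6 same-numbered pairs 0 genes were higher and 9 genes, among them all 4 hydrolase genes, lower with LNA1 in every pair, while 20% of all genes tested moved 1 way (7.91% higher and 12.1% lower). Of these 4 hydrolase genes only Lipa was called with the block, and Ctsb had a log2 fold change of −0.07. None of the 40 genes was free of overlap both unstimulated and stimulated, against 2.25% of all genes tested. Pdgfra, a preadipocyte marker, was higher with LNA1 (13.7 ± 1.97 against 7.41 ± 0.488 CPM, adjusted p = 0.00743 without the block), as it was with LNA2 (12.1 ± 2.17 CPM, adjusted p = 0.0121). With the block 1 of 3 tested macrophage markers and 1 of 4 preadipocyte markers were higher with LNA1, and 1 of 7 adipocyte and 1 of 6 brown adipocyte markers lower. The part of these markers in the results was not tested.

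Lipa was lower with LNA1 than with ctrlA in each of the 6 pairs of the libraries listed above, and the unstimulated groups did not overlap. The mean was 219 ± 37.7 CPM with ctrlA and 168 ± 31.4 CPM with LNA1 (SD, n = 6), a fold change of 0.766. The log2 fold change was −0.38 ± 0.14 (adjusted p = 0.475) without the block and −0.39 ± 0.06 (adjusted p = 0.00163) with it, and the call held in all 18 fits without 1 library but not without all libraries numbered 4 (adjusted p = 0.0727).

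Atg3 (chr16:45158785-45188538, plus strand) encodes the enzyme that transfers LC3 and GABARAP proteins to lipid. Libraries 2, 3 and 4 held 87.1, 75.9 and 88.1 CPM in unstimulated ctrlA and 69.4, 64.5 and 73.6 CPM with LNA1. After isoproterenol they held 86.3, 69.5 and 80.6 CPM with ctrlA and 75.6, 69.5 and 61.4 CPM with LNA1. The unstimulated groups did not overlap, whereas the stimulated groups did, and 1 of the 6 pairs was not lower. The log2 fold change was −0.23 ± 0.09 (adjusted p = 0.521) without the block and −0.23 ± 0.06 (adjusted p = 0.0177) with it, and this call was lost in 5 of 18 fits without 1 library, at most at 0.0781 without stimulated ctrlA replicate 2.

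Wipi1 (chr11:109573331-109611967, minus strand) encodes a protein that binds the phosphoinositide of the nascent membrane. In replicates 2, 3 and 4 of the unstimulated cells it stood at 33.5, 35.3 and 40.2 CPM with ctrlA, at 35.1, 40.9 and 38.5 CPM with LNA1 and at 37.3, 43.5 and 51.1 CPM with LNA2. After isoproterenol it stood at 28.9, 30.9 and 36.4 CPM with ctrlA, at 35.4, 40.4 and 47.0 CPM with LNA1 and at 37.5, 42.5 and 43.9 CPM with LNA2. Both LNAs lay above ctrlA in most pairs, in 5 of 6 for LNA1 and in 6 of 6 for LNA2. For LNA1 the log2 fold change was 0.21 ± 0.11 (adjusted p = 0.898) without the block and 0.21 ± 0.05 (adjusted p = 0.0201) with it, a call lost in 7 of 18 fits without 1 library, at most at 0.0744 without stimulated LNA1 replicate 4. Optn, which encodes the cargo receptor optineurin, fell from 58.7 ± 6.70 to 51.3 ± 4.93 CPM (−0.19, adjusted p = 0.0433 with the block), and its call was lost in 12 of these fits, at most at 0.134 without unstimulated ctrlA replicate 2. The other 36 genes were not called, with log2 fold changes from −0.27 for Atg5 to 0.13 for Atg2b and 95% intervals of up to 0.26 to either side.

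LNA2 was compared with ctrlA in the same way, using the same ctrlA libraries. With the block 11 of the 40 genes passed, 7 of them higher and 4 lower, against 20.6% of all genes tested (9.43% higher and 11.2% lower). The higher genes were Ulk1, Atg14, Atg2a, Wipi1, Gabarapl1, Sqstm1 and Tfe3, and the lower ones Ulk2, Fundc1, Ctsl and Lipa. The median log2 fold change was −0.00 over the 40 genes and −0.02 over all genes tested. All 6 pairs were higher for 5 genes and lower for 6 genes, and 22% of all genes tested moved 1 way in every pair (9.91% higher and 12.1% lower). None was free of overlap both unstimulated and stimulated, against 3.53% of all genes tested. Markers moved along with LNA2 in the fit with the block, where 3 of 3 tested macrophage markers and 2 of 4 preadipocyte markers were higher and 4 of 7 adipocyte and 3 of 6 brown adipocyte markers lower. Cd68 averaged 25.6 CPM with LNA2 and 14.2 CPM with ctrlA (adjusted p = 7.74e-05 with the block and 0.0570 without it). The macrophage sum ranged from 16.1 to 49.4 CPM with LNA2 and from 10.8 to 29.9 CPM with ctrlA. The mitochondrial share of the counts was higher with LNA2 than with ctrlA in 5 of 6 same-numbered pairs. The part of these markers and of this share in the results was not tested.

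The 2 kinase genes of the initiation complex thus differed in sign, with Ulk1 at 0.29 ± 0.06 (adjusted p = 0.00284) and Ulk2 at −0.20 ± 0.06 (adjusted p = 0.0163) in the fit with the block. The call of Ulk2 was lost in 3 of 18 fits without 1 library, at most at 0.0556 without stimulated ctrlA replicate 3, whereas that of Ulk1 was lost in 0 of them but fell short without all libraries numbered 2 (adjusted p = 0.0530). Atg14 of the lipid kinase complex (chr14:47540893-47570649, minus strand) held 15.7, 13.8 and 13.9 CPM in unstimulated ctrlA and 18.01, 17.2 and 20.0 CPM with LNA2. After isoproterenol it held 13.8, 16.3 and 12.3 CPM with ctrlA and 17.9, 16.2 and 24.2 CPM with LNA2. The unstimulated groups did not overlap and the stimulated groups met at their edges. The fold change was 1.32, with a log2 fold change of 0.40 ± 0.12 (adjusted p = 0.133) without the block and 0.39 ± 0.10 (adjusted p = 0.0102) with it. With the block the call was lost without all libraries numbered 2 (adjusted p = 0.0647) or numbered 4 (adjusted p = 0.176). Becn1 and Pik3c3, the other genes of that complex, were not called.

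Of the membrane growth genes, Wipi1 rose from 34.2 ± 4.06 to 42.6 ± 5.07 CPM (SD, n = 6), with a log2 fold change of 0.32 ± 0.11 (adjusted p = 0.211) without the block and 0.32 ± 0.05 (adjusted p = 0.000534) with it. Atg2a rose by 0.24 ± 0.08 (adjusted p = 0.0369 with the block), a call lost in 7 of 18 fits without 1 library, at most at 0.125 without stimulated ctrlA replicate 3. Without stimulated LNA2 replicate 3, the library that stood apart, the log2 fold change of Atg2a was 0.15 (adjusted p = 0.0960). No gene of the conjugation machinery was called. Gabarapl1 rose from 107 ± 14.3 to 132 ± 19.2 CPM, in 6 of 6 pairs, with a log2 fold change of 0.31 ± 0.11 (adjusted p = 0.242) without the block and 0.31 ± 0.06 (adjusted p = 0.00296) with it, a call lost without all libraries numbered 4 (adjusted p = 0.107).

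Sqstm1 (chr11:50199366-50210827, minus strand) was singled out after its values were seen. Its product p62 carries ubiquitinated cargo into the autophagosome and is itself degraded there. Unstimulated libraries held 311, 420.0 and 482 CPM with ctrlA, 287, 391 and 423 CPM with LNA1 and 365, 516 and 622 CPM with LNA2. Stimulated libraries held 288, 397 and 454 CPM with ctrlA, 274, 413 and 419.9 CPM with LNA1 and 376, 639 and 573 CPM with LNA2. LNA2 was highest within every number, unstimulated and stimulated, while the libraries numbered 2 were the lowest of each group. Against ctrlA the log2 fold change was 0.39 ± 0.19 (adjusted p = 0.496) without the block and 0.39 ± 0.05 (adjusted p = 0.000123) with it, a fold change of 1.31. Without the libraries numbered 2 it passed also without the block (0.45, adjusted p = 0.00995). The exons of Sqstm1 share 580 bases with Mrnip on the opposite strand.

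Lipa was lower with LNA2 than with ctrlA in 6 of 6 pairs, at 162 ± 28.3 against 219 ± 37.7 CPM, and the stimulated groups did not overlap. The log2 fold change was −0.43 ± 0.14 (adjusted p = 0.185) without the block and −0.43 ± 0.06 (adjusted p = 0.000248) with it. Ctsl fell by 0.20 ± 0.05 (adjusted p = 0.0163 with the block), a call lost in 3 of 18 fits without 1 library, at most at 0.0560 without unstimulated LNA2 replicate 2. Fundc1 fell by 0.34 ± 0.11 (adjusted p = 0.0375), which was lost in 10 of these fits, at most at 0.113 without stimulated ctrlA replicate 3. Without stimulated LNA2 replicate 3 the log2 fold change of Fundc1 was −0.22 (adjusted p = 0.0248). Tfe3 rose by 0.18 ± 0.05 (adjusted p = 0.0214), which was lost in 4 of these fits, at most at 0.0679 without stimulated ctrlA replicate 4, and Tfeb was not called. The other 29 genes had log2 fold changes from −0.27 for Bnip3 to 0.20 for Atg9a.

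LNA1 and LNA2, which differ in sequence and in their site on Gm15551, were also compared directly, again 6 libraries against 6. With the block 10 of the 40 genes passed, of which LNA2 was higher in 9 and lower in 1, against 15.4% of all genes tested (8.23% higher and 7.20% lower). The higher genes were Ulk1, Atg14, Atg16l1, Gabarapl1, Sqstm1, Optn, Tfe3, Ctsb and Ctsd, and Ulk2 was lower. The median log2 fold change was 0.06 over the 40 genes and −0.00 over all genes tested. In every pair 10 genes were higher and 1, Bnip3, was lower with LNA2, and 22.3% of all genes tested moved 1 way (11.4% higher and 10.9% lower). With the block 2 of 3 tested macrophage markers were higher with LNA2, among them Cd68 at 25.6 CPM against 18.7 CPM with LNA1 (adjusted p = 0.0124), and of 7 adipocyte markers 2 were higher and 2 lower. Of 4 preadipocyte markers 1 was higher and of 6 brown adipocyte markers 1 was lower. The macrophage sum with LNA1 ranged from 13.02 to 36.0 CPM. The share of the ribosomal RNA gene was lower with LNA2 than with LNA1 in 5 of 6 pairs, and the part of these markers and of this share in the differences was not tested.

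Sqstm1 was at 515 ± 119.8 CPM with LNA2 and 368 ± 68.9 CPM with LNA1, with a log2 fold change of 0.49 ± 0.19 (adjusted p = 0.387) without the block and 0.48 ± 0.05 (adjusted p = 3.24e-05) with it. Gabarapl1 did not overlap between the LNAs, neither unstimulated nor stimulated, which was the case for 1 of the 40 genes and for 2.50% of all genes tested. Its fold change was 1.28 and its log2 fold change 0.36 ± 0.11 (adjusted p = 0.191) without the block and 0.36 ± 0.06 (adjusted p = 0.00151) with it.

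Ctsd (chr7:142375911-142388038, minus strand) encodes the aspartic protease cathepsin D and was added after its values were seen. It held 343, 373 and 381 CPM in unstimulated LNA1 and 396, 433 and 477 CPM in unstimulated LNA2. After isoproterenol it held 327, 382 and 379 CPM with LNA1 and 378, 582 and 469 CPM with LNA2. LNA2 was higher in all 6 pairs, and the unstimulated groups did not overlap. The log2 fold change was 0.32 ± 0.12 (adjusted p = 0.321) without the block and 0.32 ± 0.06 (adjusted p = 0.00249) with it. Of the 50-base stretches of Ctsd, 32.4% occur also in Gm49369, so its counts depend on how reads were divided between them. Lipa, which was lower with either LNA than with ctrlA, differed between the LNAs by −0.04 on the log2 scale and was not called. Calls that held in all 18 fits without 1 library were those of Gabarapl1, Sqstm1, Optn and Ctsd, while those of the other 6 genes were each lost in at least 1 fit. Without all libraries numbered 4, the adjusted p with the block was 0.0543 for Gabarapl1, 0.198 for Optn and 0.0716 for Ctsd, and Sqstm1 kept its call (0.0104).

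**Figure D5:**
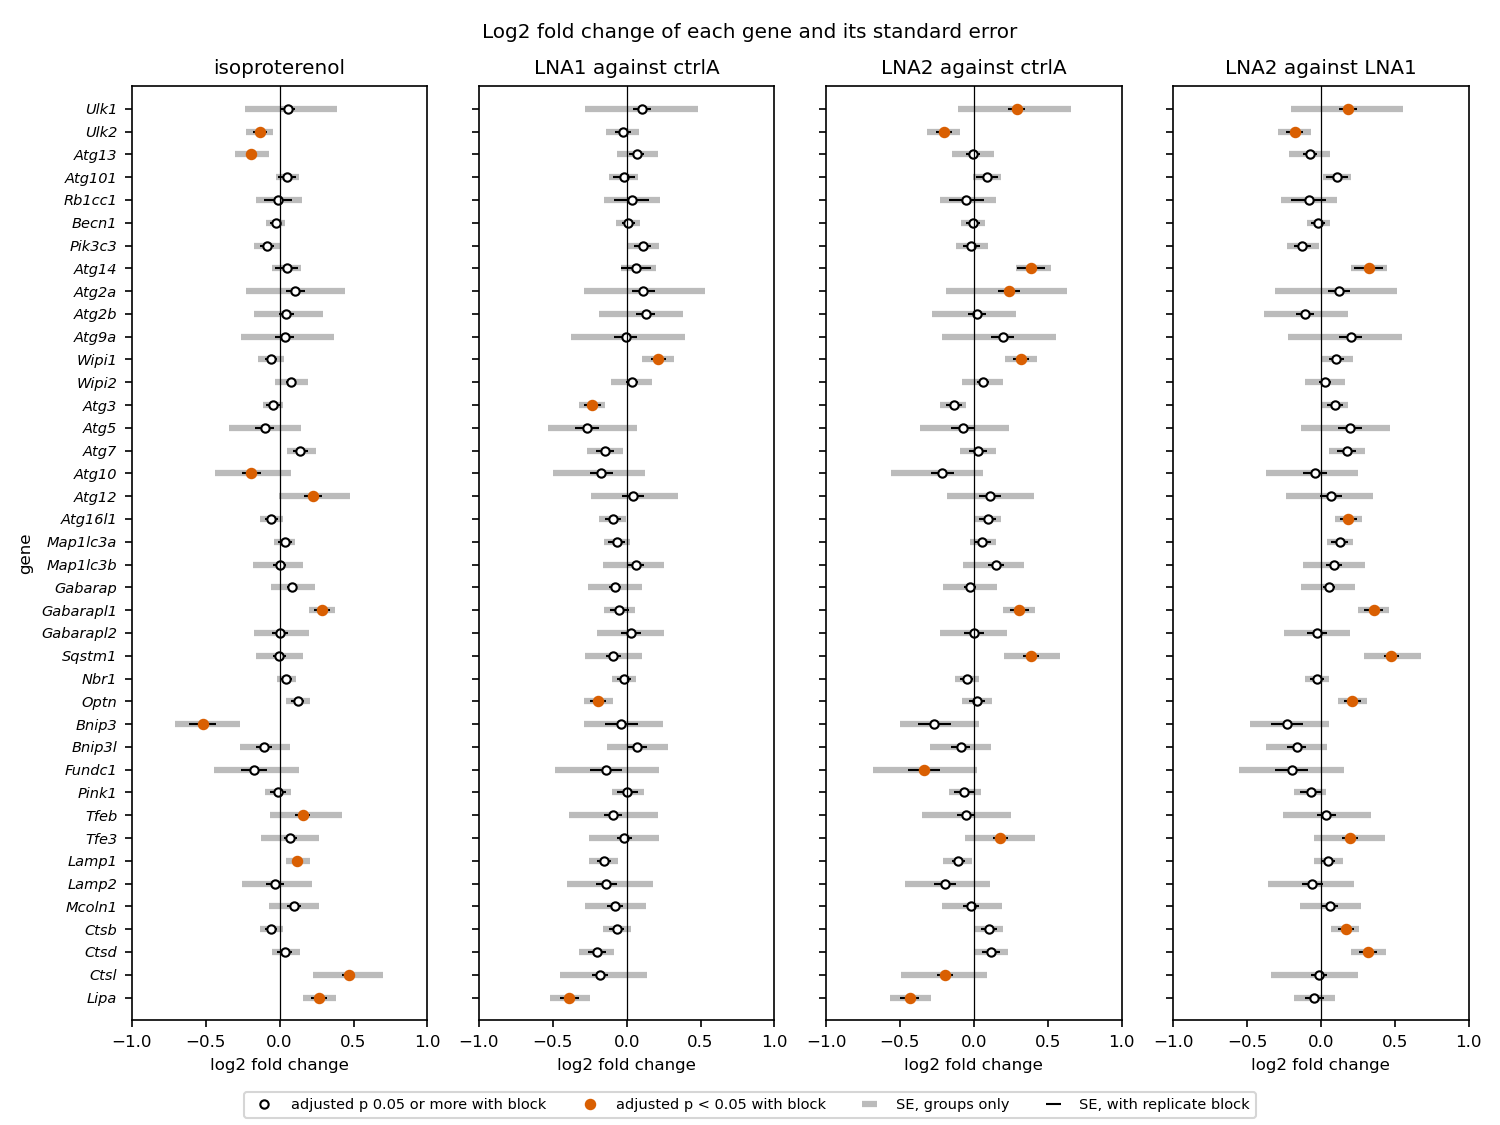
Log2 fold change of the 40 genes, listed by role, for isoproterenol, LNA1 against ctrlA, LNA2 against ctrlA and LNA2 against LNA1. Points are estimates with the replicate block, thin bars their SE and grey bars the SE without the block; filled points passed an adjusted p of 0.05 with the block (10, 4, 11 and 10 genes), and the grey bars are widest for genes that differ between the replicate numbers, such as Atg2a, Ulk1 and Fundc1.

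Whether the response to isoproterenol differed between the LNAs was tested by the interactions. edgeR called 0 of the 40 genes for LNA1 and 0 for LNA2, without and with the block, and 0% of all genes tested. At an unadjusted p below 0.05 it found 0 genes in either interaction without the block and 1 in each with it (2.63% of all genes tested for LNA1 and 5.40% for LNA2). These were Wipi1 for LNA1 (0.28 ± 0.11, adjusted p = 1) and Ulk2 for LNA2 (0.31 ± 0.11, adjusted p = 0.81). DESeq2 called 0 genes in either interaction with and without the block.

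The 40 genes were set beside further genes of the same pathways, whose counts with the block are to be read against the 26.4% (isoproterenol), 7.80% (LNA1), 20.6% (LNA2) and 15.4% (LNA2 against LNA1) of all genes tested that were called. Of 17 tested V-ATPase subunits, which acidify the lysosome, 0 were called in any group comparison without the block. With the block 1 was higher and 1 lower after isoproterenol, 1 was lower with LNA1, and 0 were called with LNA2 against ctrlA or LNA1. Of 43 other genes of lysosomal hydrolases and membrane proteins, Ctsz, which encodes the exopeptidase cathepsin Z, was called without the block after isoproterenol (128 ± 28.1 to 178 ± 56.6 CPM, log2 fold change 0.47, adjusted p = 0.0442). With the block 9 of them were higher and 7 lower after isoproterenol, 1 was higher with LNA1, 4 were higher and 6 lower with LNA2 than with ctrlA, and 8 were higher and 1 lower with LNA2 than with LNA1.

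Of 34 other autophagy genes, Atg9b, a paralogue of Atg9a, was higher with LNA2, at 4.48 ± 1.76 CPM against 0.611 ± 0.292 CPM with ctrlA (log2 fold change 2.84, adjusted p = 0.00138 without the block) and 0.834 ± 0.402 CPM with LNA1 (2.41, adjusted p = 0.00609). Atg16l2, a paralogue of Atg16l1, was higher with LNA2 than with LNA1 (6.11 ± 1.56 against 3.54 ± 0.658 CPM, 0.76, adjusted p = 0.0280). With the block 2 of the 34 were higher and 6 lower after isoproterenol, 0 were called with LNA1, 6 were higher and 4 lower with LNA2 than with ctrlA, and 5 were higher and 2 lower with LNA2 than with LNA1.

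Of 32 genes of mTORC1, AMPK and Rag signalling, which hold autophagy in check or start it, Castor1, whose product senses arginine, was higher after isoproterenol at a low level (0.743 ± 0.242 to 1.19 ± 0.23 CPM, 0.72, adjusted p = 0.0301). Rragb, which encodes a Rag GTPase, was higher with LNA2 than with ctrlA (2.71 ± 0.676 against 0.808 ± 0.321 CPM, 1.76, adjusted p = 0.00501). With the block 5 of the 32 were higher and 4 lower after isoproterenol, 2 and 2 with LNA1, 3 and 6 with LNA2 and 3 and 3 between LNA2 and LNA1. Of 14 other mitophagy genes, Dnm1l, which encodes the mitochondrial fission protein DRP1, was lower with LNA2 (106 ± 23.2 against 155 ± 7.38 CPM, −0.56, adjusted p = 0.0493). With the block 1 of the 14 was higher and 2 lower after isoproterenol, 0 and 1 with LNA1, 1 and 4 with LNA2 and 1 and 1 between LNA2 and LNA1.

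Promoters of lysosomal genes are known for the CLEAR motif, which TFEB and TFE3 bind, and for its core CACGTG. RefSeq promoter windows of build GRCm38.p6, from 250 bases before to 50 bases after each start, were matched by symbol for 32 of the 40 genes. Rb1cc1, Becn1, Pik3c3, Atg12, Atg16l1, Map1lc3a, Bnip3l and Ctsb had no match. The letters CACGTG, which read the same on both strands, were present for 9 of the 32 genes (28.1%) and for 8.09% of all 27025 genes with windows. The longer TCACGTGA, which contains it, was present for 3 (Atg3, Ctsd and Mcoln1) and for 1.12% of all genes. The full CLEAR motif, which adds a base on either side of TCACGTGA, was present for 0 of the 32 and for 0.37% of all genes. The cyclic AMP response element TGACGTCA was present for Atg5 alone and for 2.03% of all genes. The sites are shown for genes called in a comparison above, with the matched letters in capitals, in the direction of the gene.

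Atg3, chr16:45158748-45158773, plus strand: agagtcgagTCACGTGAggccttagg

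Atg14, chr14:47568420-47568445, minus strand: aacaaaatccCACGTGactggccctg

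Bnip3, chr7:138909599-138909624, minus strand: gcacgcgccgCACGTGccacacgctc

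Ctsd, chr7:142387910-142387935, minus strand: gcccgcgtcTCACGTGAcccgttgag

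Ctsl, chr13:64370741-64370766, minus strand: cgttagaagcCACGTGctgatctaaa

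Lamp1, chr8:13159090-13159115, plus strand: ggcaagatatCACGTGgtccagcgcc

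Atg3 held 2 matches to CACGTG in its window, Ctsd held 2 and Lamp1 held 4. Of the genes shown, Ctsl and Lamp1 were higher and Bnip3 lower after isoproterenol. With LNA2, Ctsl was lower than with ctrlA, Ctsd was higher than with LNA1 and Atg14 was higher than with either other LNA. Atg3 was lower with LNA1 than with ctrlA. A match is a stretch of letters and does not show that a factor binds there.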

How the data were processed

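Polyadenylated RNA of wt1-SAM cells gave 18 paired-end libraries (6 groups of 3), run on a NovaSeq. The authors used cutadapt for trimming and salmon for quantification, with Gencode M22 (GRCm38) as annotation. Versions and the use of strand are not given in the sources used here. The deposited values are expected counts per gene, in whole numbers and not scaled to depth. Totals of 9167560 to 19723021 counts set the precision, 3 counts corresponding to 0.170 to 0.306 CPM, counting error only. Within groups, 0 of 18 pairs of libraries had identical counts. The chi-square per degree of freedom of a pair ran from 81.1 to 177 where it held a library numbered 2. It ran from 4.32 to 36.5 between those numbered 3 and 4.

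Groups were taken from the labels. Counts were analysed in edgeR 4.0.16 (R 4.3.3) with filterByExpr (minimum count 10, minimum total 15), TMM and the quasi-likelihood test, 1 term per group over all libraries, two-sided and adjusted by Benjamini-Hochberg over 14949 genes, with a limit of 0.05. DESeq2 1.42.0, other scaling, no filter, a log2 fold limit of 0.5 and left-out libraries were alternatives. Libraries of the same number deviated together from their group means (45 of 45 pairs between groups with r from 0.240 to 0.722; 17 of 18 libraries correlated best with their own number), so the pairing rests on the data and fits with the number as a block are given. Exon lengths come from GENCODE M21, which held 99.53% of the listed genes. The code was tested on simulated counts. The members and lists were chosen with earlier results of these data known. Listed by library are genes called without the block, the 3 with the smallest unadjusted p for isoproterenol, LNA1 and LNA2, and those with the highest and lowest level per kb; Ctsl, Sqstm1 and Ctsd were added after their values were seen.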

Additional observations from a re-analysis of the deposited data

How the results depend on the processing

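No change of setting reversed the direction of a gene called with the block. Without the block the counts of called genes stayed at 0 in each test under DESeq2 size factors, no filter, a fold limit and omission of any 1 library. DESeq2 called 1 gene in the joint test and 1 for isoproterenol. The replicate block brought the counts to 13 (joint), 10 (isoproterenol), 4 (LNA1), 11 (LNA2) and 10 (LNA2 against LNA1), and DESeq2 with the block to 19, 12, 8, 13 and 10. The shares of all genes tested printed above belong to edgeR and are no background for the counts of DESeq2. Leaving out replicates gave ranges of 0 to 3, 0 to 3, 0 to 0, 0 to 3 and 0 to 2, the higher value in each case without replicate 2, when Gabarapl1, Sqstm1 and Ctsl passed in the joint test, Bnip3, Tfeb and Ctsl for isoproterenol, Wipi1, Gabarapl1 and Sqstm1 for LNA2 and Sqstm1 and Ctsd for LNA2 against LNA1. The share of all genes tested that passed without replicate 2 is not given here, so these counts have no background either.

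With the block, the counts moved by over 1.5 times as follows, under alternatives chosen after seeing the data. Without a filter they were 21 (joint), 6 (isoproterenol) and 7 (LNA1), with DESeq2 size factors 8 (LNA1), and with the fold limit 2, 1, 0, 0 and 0. Leaving out replicates gave ranges of 6 to 20, 4 to 13, 0 to 9, 4 to 14 and 1 to 13. The lowest counts were found without replicate 2 (joint) or 4 (the others) and the highest without stimulated LNA2 replicate 4 (joint, LNA2, LNA2 against LNA1) or 3 (isoproterenol, LNA1). Leaving out 1 library moved the count by over 1.5 times in 1, 3, 10, 2 and 5 of 18 fits. Shares of all genes tested under these alternatives are not given here. Calls kept in all 18 such fits were 6 of 10 for isoproterenol, 1 of 4 for LNA1, 6 of 11 for LNA2 and 4 of 10 for LNA2 against LNA1. Leaving out all libraries of 1 number ended further calls among these, with an adjusted p without replicate 4 of 0.196 for Atg12 and 0.0645 for Lipa after isoproterenol, 0.0727 for Lipa with LNA1, 0.176 for Atg14 and 0.107 for Gabarapl1 with LNA2, and 0.0543 for Gabarapl1, 0.198 for Optn and 0.0716 for Ctsd between the LNAs. Without replicate 2 it was 0.196 for Atg12 after isoproterenol, 0.0530 for Ulk1 and 0.0647 for Atg14 with LNA2 and 0.0563 for Optn between the LNAs, and without replicate 3 it was 0.0686 for Optn. The cause was not tested, though these fits hold 12 libraries in place of 18. Depth limits the lowest genes, Atg10 with 67 counts in 1 library. The interactions stayed at 0 calls under these settings.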
